A study of Homo sapiens with 18 samples.

Results

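The probe sets described here measure the translation initiation and elongation factors. They are the probe sets whose single gene symbol in the annotation of the array starts with EIF1 to EIF6 or with EEF, without the EIF2AK kinases. This rule gives 142 probe sets of 57 genes, among 54675 probe sets in all and 19775 genes with a single-symbol probe set. A further 16 probe sets carry several symbols of which 1 starts in this way, and they are not members. EEF1G, EEF1B2 and EIF4A1 are among the genes that are left out for this reason and were not analysed here.

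All values come from 1 RNA sample of untreated FTC-133 cells, a human cell line from a follicular thyroid carcinoma. Aliquots of this sample were hybridized to the HG-U133 Plus 2.0 arrays A, B and C, which were stained and washed under stringent conditions in 2 series, with 18 scans in total. In the second series, which followed a new staining (re-labelling), array A was scanned after a total of 17, 19, 24 and 34 stringent cycles (scans A5 to A8), array B after 21, 23, 28 and 38 cycles (B5 to B8) and array C after 12 cycles (C2). The first series held scans of array A after 0, 2, 7 and 17 cycles (A1 to A4), of array B after 2, 4, 9 and 19 cycles (B1 to B4), of which 2 preceded the staining, and of array C after the 6 cycles of the standard protocol (C1). Thus 0, 2, 7 and 17 cycles were added within each series on arrays A and B. The questions were how the scaled signals change over 17 added cycles relative to 0, and how they differ between the second and the first staining. The RNA was the same throughout, so the p-values reflect scatter among repeated scans of 2 or 3 arrays and no biological variation. Of the thyroid markers, the transcription factors NKX2-1 (766), PAX8 (757) and HHEX (176) had scan C1 signals above, whereas thyroglobulin (TG, 40.7), the transcription factor FOXE1 (39.9) and the receptor TSHR (38.9) were below the median of all probe sets (51.0). The 6 markers of other cell types lay between 24.6 and 111 on the same scan. Of these, PECAM1 (111), HBB (107) and DES (52.7) were also above this median, whereas CD3E, ALB and PTPRC were below it. Each marker is given by its brightest probe set.

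Initiation factors bring the small ribosomal subunit, the initiator tRNA and the capped mRNA together. EIF2 carries the initiator tRNA, EIF1 and EIF1A guard the choice of the start codon, EIF3 is a large scaffold on the small subunit, and EIF4E, EIF4G and the EIF4A helicase bind and unwind the capped mRNA end. During elongation EEF1A delivers aminoacyl-tRNA, EEF2 moves the ribosome along the mRNA and EIF5A helps at difficult peptide bonds. Growing cells make large amounts of these proteins, and several of their mRNAs start with a C followed by a run of pyrimidines, through which mTOR and LARP1 control their translation.

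This feature is shown for some of the brightest members and for EIF4E, because it is the best known shared sequence feature of the group. The sequences are RefSeq windows (GRCh38.p14) of 15 bases before the annotated start and the first 15 bases of the transcript, 5′ to 3′. Capitals mark a C followed by at least 4 pyrimidines that begins within 2 bases of the start.
EEF1A1 (chr6:73521018-73521047, minus strand): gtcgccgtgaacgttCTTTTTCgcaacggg
EEF2 (chr19:3985449-3985478, minus strand): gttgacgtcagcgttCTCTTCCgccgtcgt
EIF3M (chr11:32583816-32583845, plus strand): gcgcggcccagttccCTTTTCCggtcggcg
EIF3F (chr11:7987322-7987351, plus strand): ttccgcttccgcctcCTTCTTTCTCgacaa
EIF1 (chr17:41688870-41688899, plus strand): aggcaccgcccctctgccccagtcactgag
EIF1AX (chrX:20141824-20141853, minus strand): gcaaagagtcgcggcgccatttgctgccgc
EIF4E (chr4:98929119-98929148, minus strand): ccttctggagcggttgtgcgatcagatcga
The first 4 windows hold the tract and the last 3 do not. Of the 45 member genes with an annotated start, 15 (33.3%) had the tract, against 3557 of 27305 genes in the whole table (13.0%). The limit of 2 bases was chosen after a limit of 5 bases had been looked at, with which 22 of 45 member genes (48.9%) and 6886 of 27305 genes (25.2%) had the tract. For the other 12 member genes no entry matched. The count is a description of the annotated starts and was not set against the signals.

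The members are mostly bright. Brightness on scan C1 is a property of each probe set and does not rank genes by abundance. It ran from 3.48 to 25508 with a median of 730, against 51.0 for all probe sets. In all 119 of 142 members exceeded the median of all probe sets and 68 (47.9%) belonged to the top decile, while 23 were below the median. The brightest members were 4 probe sets of EEF1A1, the major aminoacyl-tRNA carrier, followed by EIF1 (20326), EIF4G2 (15454), EEF2 (14293), EIF5 (12567) and EEF1D (11452). A suffix _x_at or _s_at marks a probe set that can match several transcripts, and signals of families with many close copies such as EEF1A1 may include those copies.

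The deposited signals were scaled per scan to the same trimmed mean. A loss shared by all probe sets is therefore removed. Each log2 change is reported after subtraction of the median change of all probe sets, and over 17 cycles of the first series this median amounted to -0.61 for array A and -0.27 for array B. On this scale the members lay above the rest after washing. The median relative change of the 142 members was 1.18 on array A, with 107 above the median of all probe sets, and 0.43 on array B, with 102 above it. On both arrays 83 members were above, 16 were below on both and 43 lay on opposite sides. The mean of the 2 arrays had a median of 0.78, with an SD of 0.53 between the array medians. This size depends on the scaling: with quantile normalization, which forces all scans to 1 distribution, it was 0.09.

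Brightness moved with this difference. Among members of the top decile on scan C1 the median relative change came to 1.53 for array A and 0.74 for array B, against 1.25 and 0.47 for all 5468 probe sets of that decile. The members were also brighter within the decile, with a median C1 signal of 3238 against 1794, so that membership and brightness cannot be told apart there. Members between the median and the top decile had 0.50 on array A and -0.02 on array B, and those below the median had -0.73 and 0.24. The arrays resembled each other among bright members and not among dim ones. Across the 68 members of the top decile Pearson's r of the changes on arrays A and B was 0.80 (Spearman's rho 0.80), across all 142 it was 0.32 (0.43) and across the 23 below the median 0.04 (-0.06). These are descriptions across probe sets of the same scans, and probe sets are not independent replicates.

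**Figure D1:**
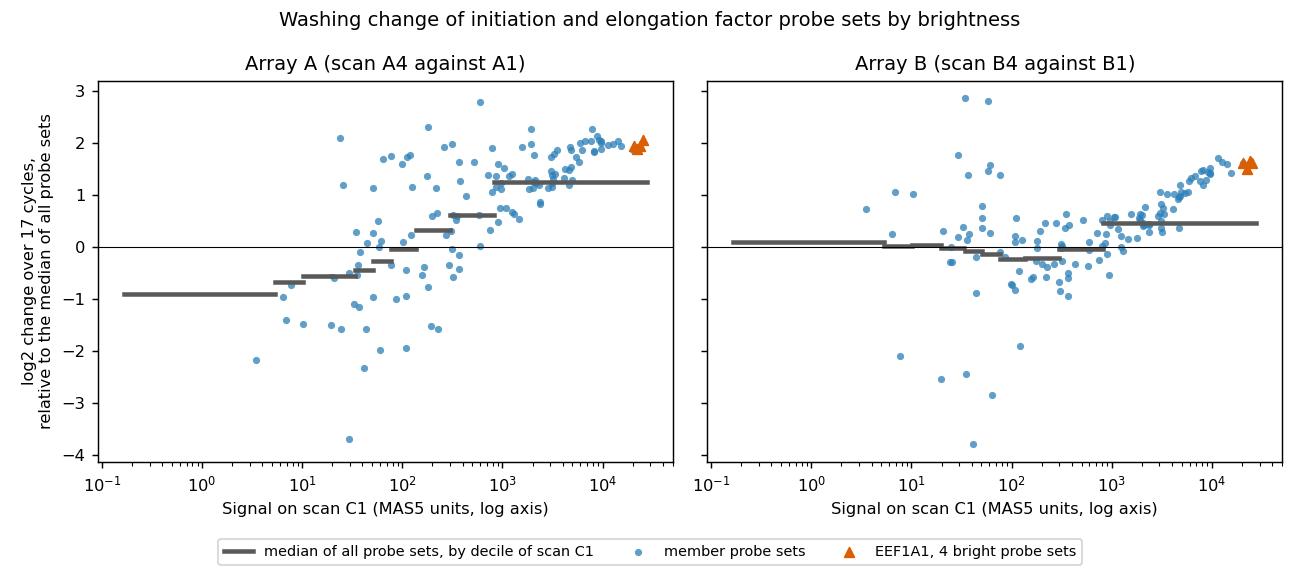
Log2 change over 17 added cycles in the first series, relative to the all-probe-set median, against the signal on scan C1 (log axis), for arrays A and B. Points are the 142 member probe sets, triangles the 4 bright EEF1A1 probe sets (1.88 to 2.06 on array A and up to 1.66 on array B), and grey bars the medians of all probe sets by decile of scan C1, which reach 1.25 on array A and 0.47 on array B in the top decile.

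In the test over both arrays (limma, 17 against 0 added cycles, array as a block, Benjamini-Hochberg adjustment over all 54675 probe sets) no member passed the threshold of 0.05 in either direction, with adjusted p = 0.192 to 0.999. The share of all probe sets called was 0.0% higher and 0.0% lower. Before adjustment, 32 members were higher and 12 lower at p under 0.05, against 1914 and 7573 of all 54675 probe sets. The test applies to the change of the scaled signal before the median of all probe sets is subtracted. When the variance was allowed to depend on the level (variance trend with robust moderation), 38 members of 24 genes rose and 2 fell, against 3.57% of all probe sets that rose and 1.21% that fell. All 38 belonged to the top decile on scan C1, where they are 55.9% of the 68 members and the share of all probe sets called higher is 35.5%. Without scan B1 the count of rising members was 60, against 7.26% of all probe sets. When each scan was anchored on the 100 brightest probe sets, 5 of which are members, 0 members were higher and 58 (40.8%) lower, against 54.6% of all probe sets that were lower. The rise is thus one relative to the average probe set and not relative to the brightest ones.

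The start site and ternary complex group held 38 probe sets, of which 13 from 7 genes rose in the fit with a variance trend and 0 fell. Over all probe sets 3.57% rose and 1.21% fell in that fit. The rising members of this and the following role groups were all in the top decile on scan C1, where 35.5% of all probe sets rose. Role and brightness can therefore not be told apart in these counts. EIF1, which scans for the start codon, had a signal of 9535, 14711, 19750 and 22693 on scans A1 to A4 and 15121, 23031, 30676 and 38577 on scans B1 to B4 (211956_s_at). It was higher at every step on both arrays, with a change of the scaled signal of 1.30 ± 0.05 (SE, limma with variance trend, adjusted p = 8.04e-09, against 0.192 in limma without it). EIF5, which triggers GTP hydrolysis by EIF2, had 5578, 8791, 11245 and 14379 on scans A1 to A4 and 9306, 14720, 19756 and 24167 on scans B1 to B4 (208705_s_at), again rising at every step. EIF2S2, the beta subunit of EIF2, had relative changes of 2.07 on array A and 1.44 on array B, and EIF2S1, the alpha subunit whose phosphorylation blocks initiation, 1.86 and 1.19. EIF1AX was at 1.64 and 1.06 with its brightest probe set (201019_s_at), while its other 3 probe sets ranged from 0.49 to 0.86 on array A and from -0.13 to 0.29 on array B. EIF5B, which joins the ribosomal subunits, rose in that fit with its brightest probe set (1.99 and 0.64, adjusted p = 0.0399). The 6 EIF5B probe sets lay on both sides of the median of all probe sets, with means over both arrays from -0.52 to 1.31. EIF1B, a close relative of EIF1, did not pass in the fit with a variance trend (0.82 and 0.43, adjusted p = 0.348).

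Of 32 probe sets of EIF3 subunits, 13 from 10 genes rose with the variance trend and 0 fell. EIF3E had 3847, 6154, 8136 and 10115 on scans A1 to A4 and 7979, 11329, 14547 and 17625 on scans B1 to B4 (adjusted p = 3.52e-07 with the variance trend and 0.194 in limma without it). EIF3L, EIF3H, EIF3F and EIF3M, at 1.82 to 2.01 on array A and 1.20 to 1.53 on array B for their brightest probe sets, lay close to it. The subunits EIF3A (1.20 and 0.37, adjusted p = 0.168) and EIF3J (1.15 and 0.36, adjusted p = 0.209) did not pass, and EIF3B passed with 1 of its 6 probe sets (203462_x_at, 1.47 and 0.65, adjusted p = 0.0297). EIF3K had 3 bright probe sets between 1.48 and 1.73 on array A and between 0.93 and 1.04 on array B, all of which rose. Low probe sets of the same genes lay elsewhere: EIF3E 235429_at, with a C1 signal of 226, was at -1.58 and -0.38, EIF3M 215190_at at -0.95 and -0.83, and EIF3H 230570_at at 0.23 and -1.90. The member probe set of EIF3C is dim (24.6 on scan C1), and its values of -1.57 and 0.00 rest on a signal in the lower range of the array.

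Of 24 probe sets of the cap-binding and helicase group, 3 rose and 1 fell with the variance trend. EIF4G2, a relative of EIF4G that works without EIF4E, had 8747, 13938, 18535 and 22133 on scans A1 to A4 and 13515, 18736, 23975 and 30089 on scans B1 to B4 (200004_at), and EIF4H, a helper of the helicase, and EIF4A3, the helicase of the exon junction complex, rose as well (1.88 and 1.33, and 1.80 and 0.76). EIF4E, the cap-binding protein itself, had 1489, 1492, 1313 and 1428 on scans A1 to A4 and 1615, 1464, 1544 and 1494 on scans B1 to B4 (201435_s_at). The scaled signal of this probe set changed little over the 17 cycles (change of -0.09 ± 0.27, SE, limma, adjusted p = 0.880), which is 0.55 and 0.16 relative to all probe sets. The other EIF4E probe sets above the median of scan C1 differed between the arrays. EIF4E 201437_s_at had 1769, 1685, 1686 and 1950 on scans A1 to A4 and 1896, 1302, 1082 and 1079 on scans B1 to B4, and 201436_at had 730.4, 726, 776 and 600 on scans A1 to A4 and 1172, 937, 818 and 819 on scans B1 to B4. Neither was called (adjusted p = 0.627 and 0.504 in limma, 0.377 and 0.273 with the variance trend). EIF4E2, a cap-binding relative, stood at 0.63 and -0.07 and EIF4G1, the scaffold, at 1.26 and 0.41 with its brightest probe set. The other EIF4G1 probe set, 208625_s_at, was at 2.28 and 0.53. None of these was called. The probe set that fell was EIF4E3 225941_at, a dim one with 190, 132, 78.0 and 24.7 on scans A1 to A4 and 104, 58.1, 37.4 and 6.21 on scans B1 to B4 (adjusted p = 0.0164 with the variance trend). The brighter probe set of the same gene, 225940_at, was at 1.73 and 0.57. EIF4A2 is represented by a dim probe set only (6.46 on scan C1), at -0.96 and 0.25.

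None of the 8 probe sets of the cap-binding inhibitors and the EIF4E transporter was called. EIF4EBP1, which blocks EIF4E until mTOR phosphorylates it, was at 1.12 and 0.57, EIF4EBP2 at 1.24 and 0.50, and EIF4ENIF1, the nuclear importer of EIF4E, at 1.98 and 0.06. The 7 probe sets of EIF2B, the exchange factor that reloads EIF2 with GTP, were not called either. The 6 brighter ones lay above the median of all probe sets on both arrays. EIF2B2 had 1246, 1463, 1620 and 1791 on scans A1 to A4 and 1552, 1737, 1765 and 1976 on scans B1 to B4, and EIF2B1 and EIF2B4 were at 1.36 and 0.34 and at 1.11 and 0.43. The exception was EIF2B5 1558050_at (86.0 on scan C1), which was below the median of all probe sets on both arrays.

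Of 20 elongation factor probe sets, 9 from 4 genes rose with the variance trend and 0 fell. EEF1A1 213614_x_at had 11932, 18235, 25495 and 32609 on scans A1 to A4 and 17855, 27278, 36491 and 45471 on scans B1 to B4. The change of the scaled signal was 1.40 ± 0.05 (SE, limma with variance trend, adjusted p = 5.00e-09, against 0.192 without the trend). Relative to all probe sets, the mean change over both arrays was 1.84. The 4 bright EEF1A1 probe sets lay close together, and another, 227708_at with a C1 signal of 431, stood apart at 0.98 on array A and -0.33 on array B. EEF2 had 6521, 10228, 13905 and 17486 on scans A1 to A4 and 11508, 17392, 23236 and 28866 on scans B1 to B4. EEF1D, the exchange factor subunit that reloads EEF1A, was at 1.96 and 1.71 with its brightest probe set. With 213087_s_at, which had a C1 signal of 194, it was at -1.51 and 0.31. EEF1A2, the EEF1A form of muscle and neurons, rose as well (1.73 and 1.06, adjusted p = 0.00073). EIF5A, whose 3 probe sets were of intermediate brightness, was at 1.06 to 1.65 on array A and 0.43 to 0.53 on array B without a call, and EIF5A2 was at 0.51 and 0.36.

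Of the 8 probe sets of enzymes that act on elongation factors 0 rose and 1 fell, and only 2 on array A and 4 on array B lay above the median of all probe sets. None is in the top decile on scan C1. EEF1AKMT2, a lysine methyltransferase of EEF1A, had 484, 282, 220 and 238 on scans A1 to A4 and 402, 310, 180 and 174 on scans B1 to B4 (226631_at, adjusted p = 0.0465 with the variance trend and 0.215 without). In the second series it had 416, 310.5, 299 and 250 on scans A5 to A8 and 349, 270, 234 and 194 on scans B5 to B8. There it was also called lower in limma with the variance trend (adjusted p = 0.0366). With the scans also centred on their median, EEF1AKMT2 was called lower in neither series. Its other probe set above the median of scan C1, 226634_at, was at -1.94 and 0.09. EEF2K, the kinase that switches EEF2 off, was at 0.62 and -0.37. EEF1AKMT1 had the highest relative change of all members on array A, 2.80, and -0.06 on array B. Its signal was 75.7, 246, 335 and 345 on scans A1 to A4 but 523, 434, 354 and 417 on scans B1 to B4. EIF6, which keeps the large subunit apart from the small one, stood at 1.31 and 0.17. The noncoding neighbours EIF1B-AS1 and EIF3J-DT share only the start of the symbol. Their brightest probe sets (77.5 and 179 on scan C1) were at -0.34 and 1.39 and at -0.77 and -0.01.

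**Figure D2:**
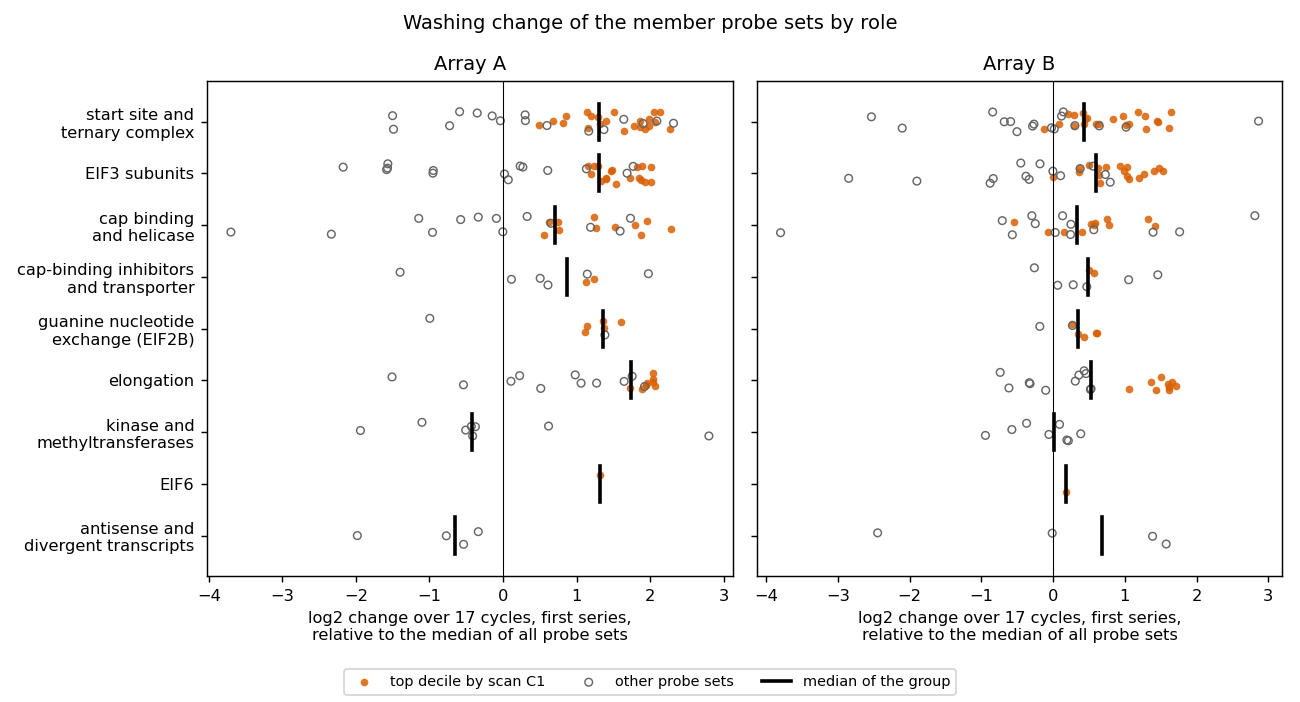
Log2 change over 17 added cycles of the first series, relative to the all-probe-set median, for the 142 member probe sets by role on arrays A and B. Filled points are the 68 probe sets of the top decile on scan C1 and black bars the group medians, which on array A are highest for elongation factors (1.74) and below 0 for the kinase and methyltransferases (-0.42) and the 4 antisense and divergent transcripts (-0.65).

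Several probe sets of 1 gene did not move as one. Of 36 genes with at least 2 member probe sets, 17 had all of them on the same side of the median of all probe sets in washing and 19 had them on both sides. The brightest probe set had the highest washing change in 25 of the 36. In EIF1, with 7 probe sets from 34.6 to 20326 on scan C1, the 4 brightest were at 1.86 to 2.28 on array A and 1.28 to 1.62 on array B, while 212225_at, the dimmest, had 0.30 and 2.86.

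Most of the relative change came with the first added cycles on array A. The members' median was 0.66 from scan A1 to A2, 0.36 from A2 to A3 and 0.18 from A3 to A4, and on array B, which had been washed before staining, 0.18, 0.14 and 0.14 for the same steps. Anchored on the 100 brightest probe sets, as if these had lost nothing, the median surviving percentage of the members reached 57.0% for array A and 44.1% for array B, against 25.2% and 32.8% for all probe sets. Above 80% on both arrays were 18 members and below 30% on both were 16. The anchor of 100 itself holds 5 members, whose high percentages are partly set by construction. The matching counts for all probe sets are not given here, so the 18 and 16 are descriptions only.

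**Figure D3:**
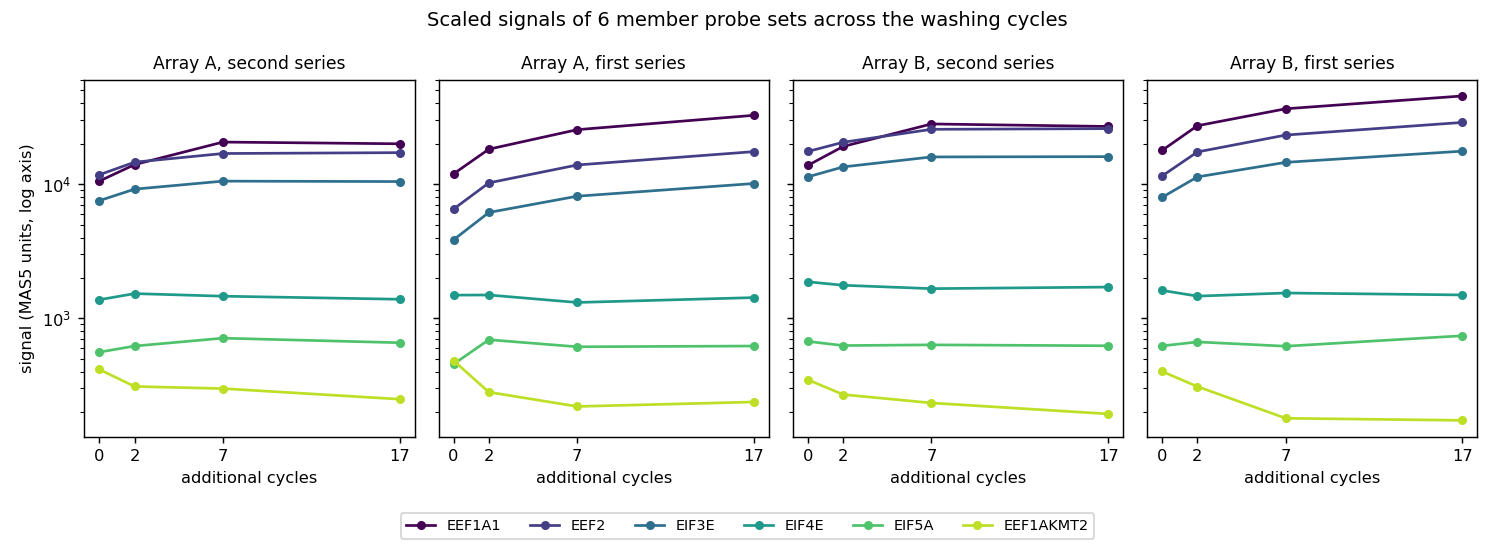
Scaled MAS5 signal (log axis) of 6 member probe sets against the added cycles, in the second and the first series of arrays A and B. EEF1A1, EEF2 and EIF3E have higher signals after 17 than after 0 added cycles in every panel and EEF1AKMT2 lower ones, whereas the signal of the plotted EIF4E probe set (201435_s_at) stays between 1313 and 1615 in the first series. EEF1A1 reaches 32609 on scan A4 and 20006 on scan A8.

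In the second series the same comparison gave smaller relative medians, 0.45 on array A (108 members above) and 0.30 on array B. No member passed in limma (adjusted p = 0.329 to 0.999, with 0.0% of all probe sets called higher and 0.0% lower). Before adjustment 17 members were higher and 13 lower at p under 0.05, against 1395 and 6358 of all 54675 probe sets. With the variance trend 28 members rose and 2 fell, against 2.38% and 0.448% of all probe sets. The 28 are 41.2% of the members of the top decile, in which 23.6% of all probe sets were called higher. All 28 had also risen in the first series, which has the same arrays and RNA. Without scan B8 there were 15, against 0.936% of all probe sets. The 2 that fell were EEF1AKMT2 226631_at and EIF4E 201436_at. When any 1 of the 8 scans was left out 0 members fell, against 0.0421% to 0.238% of all probe sets. In the first series 1 member fell in each such fit (0.402% to 3.04% of all probe sets), and 2 fell with all scans. The difference of the washing change between the series was called for no member in limma (adjusted p = 0.954 to 0.999, 0.0% of all probe sets in each direction). Before adjustment 1 member was higher and 14 lower at p under 0.05, against 1940 and 907 of all 54675 probe sets. With the variance trend 12 members of 9 genes had a smaller rise in the second series and 0 a larger one, against 0.583% and 0.0146% of all probe sets. They were probe sets of EIF1, EIF2S2, EIF5, EIF3E, EIF3L, EIF4G2, EIF4H, EEF1D and EEF2. With the scans centred on their median as well, 0 were called, against 0.0% of all probe sets in each direction.

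The second comparison sets the second staining against the first on the same array after the same added cycles, in 9 pairs of scans. Members lay slightly above the rest. Their mean relative change over the 9 pairs had a median of 0.08 (SD of the pair medians 0.20), with 89 of 142 above the median of all probe sets, but it was 0.00 without array A and -0.003 with quantile normalization. The pair medians ran from -0.14 (C2 against C1) to 0.53 (A5 against A1), where the other 8 lay between -0.14 and 0.18. In limma, with the pair as a block, 0 members were higher and 1 was lower, against 0.294% and 0.541% of all probe sets. Before adjustment 10 members were higher and 13 lower at p under 0.05, against 4558 and 6172 of all 54675 probe sets. The member called was EIF4G2 1557964_at, a dim probe set whose signal was 102, 111, 69.4 and 94.0 on scans A5 to A8, against 130, 153, 156 and 194 on A1 to A4. On scans B5 to B8 it was 29.2, 24.9, 18 and 16.8, against 61.9, 75.5, 35.2 and 41.9 on B1 to B4, and 12.9 on C2 against 25.6 on C1. It was lower in 9 of 9 pairs, by 0.96 relative to all probe sets on average (adjusted p = 0.0296, limma). The call was lost with the variance trend (adjusted p = 0.0553) and when any of 7 of the 9 pairs was left out, and the bright EIF4G2 probe set was at 0.17 with adjusted p = 0.611. The 9 pairs are repeated scans of arrays A, B and C, so pairs of the same array are not independent. The re-labelling p-values, here and below, treat them as independent. With the array as the unit, 0 of 54675 probe sets were called in either direction.

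With the variance trend 4 members rose and 5 fell on re-labelling, against 1.53% and 1.83% of all probe sets. Of those that fell, 4 are the bright EEF1A1 probe sets. EEF1A1 213614_x_at had 10535, 13991, 20606 and 20006 on scans A5 to A8, against 11932, 18235, 25495 and 32609 on A1 to A4. On scans B5 to B8 it had 13794, 19103, 28122 and 26939, against 17855, 27278, 36491 and 45471 on B1 to B4, and 21606 on C2 against 25508 on C1. It was thus lower in all 9 pairs, and relative to all probe sets in 8 of 9. The mean relative changes of the 4 probe sets were -0.39, -0.56, -0.53 and -0.49 (adjusted p = 0.0126, 0.0137, 0.0288 and 0.0341 in limma with variance trend, and 0.0846, 0.0738, 0.119 and 0.133 without it). The other 64 members of the top decile lay between -0.21 and 0.49, and 12 of the 64 were below 0. The 4 probe sets belong to 1 gene and were singled out by these same values, so their distance from the 64 is only a description. Brightness moved with this as well: among the 100 brightest probe sets of scan C1, 83 were below the median of all probe sets on re-labelling, with a median of -0.24, and relative to the mean of these 100 the changes of the 4 EEF1A1 probe sets were 0.00, -0.17, -0.14 and -0.10 in the same order, with adjusted p = 0.382 to 0.999 (limma). EIF1 211956_s_at, the other member among the 100, was at 0.02. Another EEF1A1 probe set, 1557120_at with a C1 signal of 77.2, went the other way, with a mean relative change of 0.45. The paper reports that some probes, a small fraction, reached the limit of the scanner in the second series and none in the first. The part of brightness or of this scanner limit in the EEF1A1 values was not tested.

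The members that rose on re-labelling with the variance trend were EIF5 208708_x_at (0.40), EIF1AX 201019_s_at (0.39), EIF1 202021_x_at (0.37) and EIF3M 202232_s_at (0.37), with adjusted p = 0.0209 to 0.0453 against 0.121 to 0.179 in limma without it. EIF1AX had 7286, 9099, 10225 and 10304 on scans A5 to A8, against 4525, 6373, 8185 and 9235 on A1 to A4, and was higher on B5 to B8 and C2 than on B1 to B4 and C1 too. EIF3M 202231_at, the brighter probe set of EIF3M, was at 0.22. The other member that fell was EIF4E3 225940_at (-0.80, adjusted p = 0.0413). Leaving out 1 pair in turn gave 0 to 5 rising and 2 to 6 falling members, of which 2 to 4 were EEF1A1 probe sets. Of all probe sets 0.302% to 1.83% rose and 0.36% to 2.46% fell in these fits. None of these calls, apart from EEF1A1 213477_x_at, remained when the scans were also centred on their median. EEF2 lay at 0.25 (-0.63 to 1.13 over the pairs) with its brightest probe set and at 0.09 with 200094_s_at. EEF1A2 was at 0.07 (-0.62 to 1.16 over the pairs). None of these was called, and no direction can be read from them. The lowest and highest values above the median of scan C1 came from probe sets outside the top decile, with a wide spread over the pairs. Lowest were EIF3B 242550_at at -1.31 ± 1.75 (SD, n = 9 pairs of 3 arrays) and EEF1AKMT2 226634_at at -1.20 ± 1.49. Highest was EIF1B-AS1 1556249_a_at at 0.60 ± 0.87.

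**Figure D4:**
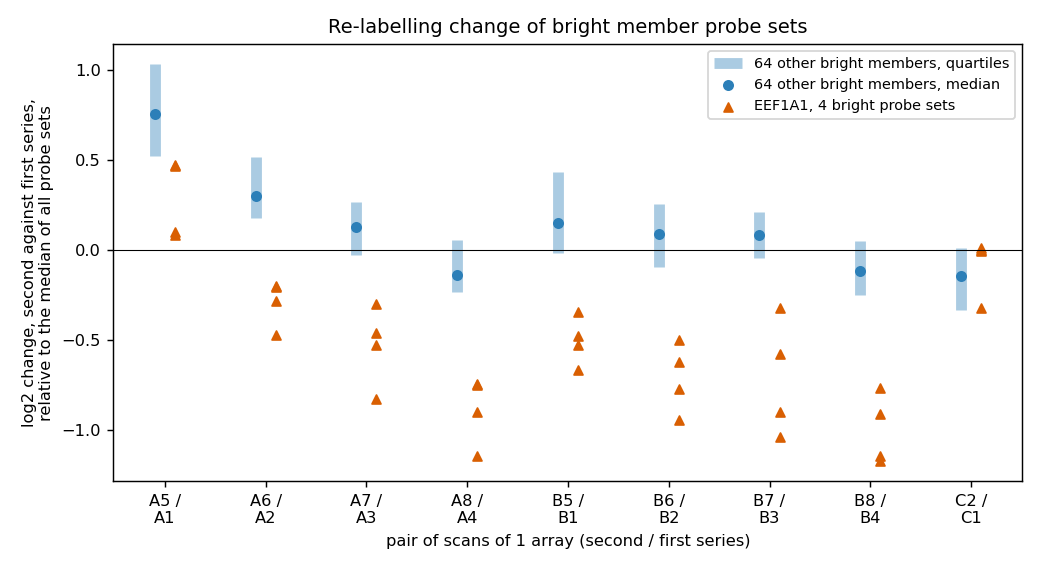
Log2 change of the second against the first series for each of the 9 pairs of scans, relative to the all-probe-set median. Triangles are the 4 bright EEF1A1 probe sets, with means of -0.39 to -0.56, dots the medians of the other 64 members of the top decile on scan C1, and bars the range between their quartiles. In the pairs of arrays A and B all EEF1A1 points lie below the dots.

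A list of other translation genes that do not meet the rule (termination, ribosome rescue, poly(A) binding, kinases and phosphatases of the initiation factors) had 31 of 32 genes with a single-symbol probe set, taking the brightest of each. Their median relative washing change in the first series was 0.28, with 24 above the median of all probe sets. In limma 0 of the 31 were called in the first series. Before adjustment 6 of the 31 were higher and 4 lower at p under 0.05, against 1914 and 7573 of all 54675 probe sets. With the variance trend 7 rose and 1 fell on washing in the first series. All 7 were among the 19 listed genes in the top decile on scan C1, of which they are 36.8%, close to the 35.5% of all probe sets of that decile. PABPC1, the poly(A) binding protein (2.00 and 1.61), LARP1 (1.80 and 1.10), MCTS1 (1.70 and 1.05), GSPT1, a release factor (1.68 and 0.80), MKNK2, the kinase of EIF4E (1.64 and 1.01), DDX3X, a helicase (1.58 and 0.91), and PAIP2 (1.38 and 0.68) rose, and EIF2AK3, the EIF2 kinase of the endoplasmic reticulum, fell (-0.88 and -1.01 relative to all probe sets). On re-labelling their median was 0.00, and 1 gene, MCTS1, rose with the variance trend.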

How the data were processed

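The table used gives each probe set 1 MAS5 signal in each scan. These signals, on a linear scale, were deposited by the authors after scaling each scan. The mean without the lowest and highest 2% was 250.02 to 250.06 in every scan, which was checked, and the MAS5 version was not given in the sources used here. Detection calls and single probe intensities were not used. Gene symbols came from the platform annotation, and all 142 members matched a RefSeq gene with 0 changed symbols. log2 signals without an offset or filter were fitted with limma 3.58.1 in R 4.3.3 over all 54675 probe sets, with the array (washing) or the pair of scans (re-labelling) as a block. Descriptive values came from numpy 2.4.6 and pandas 2.3.3 under Python 3.11.15. The fits were tested on simulated data. The array block rests on repeated scans of 1 hybridization. No 2 scans were identical.

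Alternatives were median centring, quantile normalization, anchoring on the 100 brightest, an offset of 16, only the probe sets above the median of scan C1, a variance trend, no replicate block, a line in log10 cycles, 1 probe set per gene and leaving out scans, pairs or arrays. The members, the gene lists and the tests were chosen with earlier results of these data known. Named are the brightest 3 genes of each role, represented by their brightest probe set, the 6 highest and 6 lowest in washing and in re-labelling above the median of scan C1, members called, genes with at least 4 probe sets and pairs of relatives. Others were chosen after their values were seen. EIF1AY is counted and not described singly.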

Additional observations from a re-analysis of the deposited data

Results flagged for a closer look

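The median relative change of members on re-labelling was 0.53 in the pair A5 and A1, far above the other 8 pairs, which lay between -0.14 and 0.18. Both scans are at 0 added cycles, and scan A1 is the only scan of a hybridization without any stringent cycle. Single members also had 1 pair far from the others. EIF3H 201592_at reached 1.19, EIF4ENIF1 218626_at 1.36 and EIF5B 201024_x_at 0.90 in the pair A5 and A1. The dim EIF3C 236700_at reached 4.00 in the pair A8 and A4. By chance about 1 in 20 groups of this kind shows such a gap. Without array A the median of members on re-labelling was 0.00.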

How the results depend on the processing

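The precision is limited by 3 arrays and 1 RNA sample. For washing in the first series limma called 0 members in either direction. With a variance trend 38 were higher and 2 lower, against 3.57% and 1.21% of all probe sets. The trend with median centring gave 36 and 1, against 3.41% and 0.207%. This combination, and the trend while leaving out single scans or pairs, were chosen after seeing the data. Among the probe sets above the median of scan C1, 14 were higher (11.8%, against 1.88% of all tested). A line in log10 cycles gave 21 higher (14.8%, against 1.24%). Anchoring on the 100 brightest gave 58 lower (40.8%, against 54.6%). Leaving out 1 scan with the trend gave 31 to 60 higher (60 without B1) and 1 lower. Of all probe sets 2.42% to 7.26% were higher and 0.402% to 3.04% lower in these fits. In the second series the trend gave 28 higher and 2 lower, against 2.38% and 0.448% of all probe sets. The trend with centring gave 46 higher (32.4%, against 4.36%), and anchoring gave 47 lower (33.1%, against 42.8%). Leaving out 1 scan with the trend gave 15 to 26 higher (18 without A5, 15 without B8) and 0 lower. Of all probe sets 0.936% to 2.48% were higher and 0.0421% to 0.238% lower in these fits. For the difference between the series 12 were lower with the trend (8.45%, against 0.583% of all probe sets). For re-labelling, with 0 higher and 1 lower in limma, 4 were higher and 5 lower with the trend, 65 higher when anchored (45.8%, against 20.1% of all probe sets), 2 lower with an offset of 16 (1.41%, against 1.11%), 3 lower above the median of scan C1 (2.52%, against 1.66%), 2 lower without array C (1.41%, against 0.975%) and 0 lower with 1 probe set per gene, with the array as the unit, without array A and without array B. Leaving out 1 pair gave 0 to 2 lower, against 0.0329% to 0.975% of all probe sets. With the trend it gave 0 to 5 higher and 2 to 6 lower, against 0.302% to 1.83% and 0.36% to 2.46%. Without the replicate block 0 members were lower on re-labelling, and the other calls were the same. The median washing change of members was 0.089 in the first and -0.009 in the second series with quantile normalization, and 0.50 in the second with 1 probe set per gene. Without an anchor the last signal was 148% of the first on array A and 112% on array B. The re-labelling change of EEF1A1 213614_x_at was 0.00 when anchored, against -0.43 as scaled, and that of the other 3 bright EEF1A1 probe sets was -0.17 to -0.10 when anchored. For the representative probe sets of the 40 named genes, 22 of 80 relative changes moved beyond the spread with quantile normalization and 0 of 80 with an offset of 16. The causes were not tested.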
